A study of Rattus norvegicus with 13 samples.

Results

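Endothelial markers were read on 13 Illumina rat expression arrays of liver. The set held 10 genes, each taken by the probe with the highest mean over the arrays among probes annotated with its symbol. Of these 10 genes 6 had a named probe, with 1 probe each, out of 13337 genes named on the array, and they were the von Willebrand factor gene Vwf, Egfl7, Cdh5, Tek, Lyve1 and Cd34. Pecam1, Kdr, Eng and Stab2 had no probe named for them here and are not reported. Cdh5, Tek and Cd34 stayed under a deposited intensity of 300 on every array, which was the limit used for a readable probe, so 3 of the 10 markers (Vwf, Egfl7 and Lyve1) could be tested.

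Liver has several kinds of endothelium. The sinusoids are lined by thin, fenestrated cells that take up waste from the blood through scavenger receptors such as Stab2 and Lyve1 and that carry little von Willebrand factor. Arteries, portal veins and central veins are lined by a continuous endothelium that stores von Willebrand factor, and such cells share junction proteins, adhesion molecules and receptors with endothelium elsewhere. When sinusoids lose their special features they are known to gain vessel-type markers, a change called capillarization.

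All animals of the study were male Fischer rats, and their age is not given for this protocol in the sources used here. Rats in the resistant-hepatocyte model receive diethylnitrosamine, which initiates hepatocytes, and later a diet with 2-acetylaminofluorene together with partial hepatectomy. There were 2 Control arrays, 6 of Oval cells and 5 of Preneoplastic foci, all of laser-microdissected tissue, which was pooled for oval cells and foci. Oval cells, the small biliary-like progenitors of the injured liver, and foci, early clusters of altered hepatocytes, were collected 1 week after surgery from rats that had gone through the whole protocol. The labels call the control cells hepatocytes, and the study describes its control tissue in one place as normal liver and in another as random areas of treated liver, so what the controls had received is not clear. Oval cells were chosen by shape and by staining for Krt19 and other biliary proteins, so biliary genes are no finding here. Controls and oval cells were hybridised on slide 1 and foci on slide 2. In both comparisons with foci, the slide and the group therefore cannot be told apart. There were more oval cell arrays than animals named, so some arrays shared an animal, through the pools or otherwise. Every p-value with oval cells below is therefore too small, and the pools of foci may share animals too. In such tissue, fewer cells of a type and less RNA per cell cannot be told apart.

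The start regions of the tested markers and of endothelial genes named below are shown because ETS-family factors such as ERG and FLI1 are known to act at many endothelial promoters. Each window is the RefSeq GRCr8 sequence from 250 bases before to 50 after an annotated start, and capitals mark AGGAAG, a core that ETS factors read, or its reverse complement CTTCCT. Vwf, Cdh5 and Tek had no window in the table used. The lines give an Egfl7 start (chr3:29805381-29805680, plus strand), Lyve1 (chr1:174410928-174411227, minus strand), Podxl (chr4:61149082-61149381, minus strand) and Nos3 (chr4:11706532-11706831, minus strand).
Egfl7: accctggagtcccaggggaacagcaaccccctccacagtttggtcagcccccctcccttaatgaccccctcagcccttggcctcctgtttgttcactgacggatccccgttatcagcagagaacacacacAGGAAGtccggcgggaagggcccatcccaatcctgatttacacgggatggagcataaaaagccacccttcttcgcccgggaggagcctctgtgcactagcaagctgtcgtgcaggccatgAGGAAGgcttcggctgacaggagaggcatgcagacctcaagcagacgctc
Lyve1: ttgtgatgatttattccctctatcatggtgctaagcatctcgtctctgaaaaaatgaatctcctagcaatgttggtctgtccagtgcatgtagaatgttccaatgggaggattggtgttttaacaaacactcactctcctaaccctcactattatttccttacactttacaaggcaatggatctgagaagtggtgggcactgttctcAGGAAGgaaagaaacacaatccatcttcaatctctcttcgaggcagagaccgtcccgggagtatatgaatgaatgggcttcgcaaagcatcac
Podxl: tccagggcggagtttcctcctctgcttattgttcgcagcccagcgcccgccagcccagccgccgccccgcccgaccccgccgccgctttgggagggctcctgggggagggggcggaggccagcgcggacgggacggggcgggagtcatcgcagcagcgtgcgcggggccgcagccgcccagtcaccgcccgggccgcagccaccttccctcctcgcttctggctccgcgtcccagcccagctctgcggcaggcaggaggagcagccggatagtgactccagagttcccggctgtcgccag
Nos3: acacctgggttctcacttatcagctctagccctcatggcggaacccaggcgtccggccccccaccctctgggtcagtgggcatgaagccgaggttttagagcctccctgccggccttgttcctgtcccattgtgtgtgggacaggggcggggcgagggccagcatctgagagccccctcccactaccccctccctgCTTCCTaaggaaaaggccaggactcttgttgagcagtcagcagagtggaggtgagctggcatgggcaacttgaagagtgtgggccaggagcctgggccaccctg
On the strand shown AGGAAG stood 2 times in this Egfl7 window and 1 time in that of Lyve1, its reverse complement stood 1 time in that of Nos3, and Podxl held 0. A further Egfl7 window (chr3:29808051-29808350, plus strand) and that of Cd34 (chr13:109008536-109008835) held 0 of either. For comparison, 34.5% of all 33469 windows of this length held AGGAAG on either strand. GATAA, the core of GATA factors, with its reverse complement TTATC, was present in 26.5% of all windows, and 1 time each in those of Egfl7 (the first), Nos3 and Cd34. These matches are a description and show no binding.

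Vwf, the large adhesive protein that endothelium stores and releases to catch platelets, was high in oval cells alone among the 3 groups. Its gene lies at chr4:160042900-160177757 in GRCr8. The deposited intensity of Vwf was 279 and 367 on the control arrays. In oval cells its lowest, median and highest intensities were 947, 1247 and 2107 over 6 arrays. In foci it read 280, 317, 280, 311 and 253.5. Every oval cell array lay above every control and every focus array, while controls and foci overlapped around the limit of 300. Oval cells also varied most among themselves (1438 ± 472, SD, n = 6, against 288 ± 26.03, SD, n = 5, in foci), with arrays 5 and 6 at 1936 and 2107 and the other 4 between 947 and 1344.

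In limma, Vwf was 5.24-fold higher in oval cells than in control (log2 difference 2.39 ± 0.26, SE, adjusted p = 1.41e-06). The difference between foci and control was -0.20 ± 0.27 on the log2 scale (SE, adjusted p = 0.528). Against foci, oval cells were 6.03-fold higher (2.59 ± 0.20, SE, adjusted p = 3.16e-08), a size that is uncertain since foci averaged under 300. Leaving out any 1 of the 13 arrays kept both calls, with log2 differences of 2.14 to 2.64 against control and 2.46 to 2.71 against foci. With arrays centred on ribosomal protein genes, the log2 difference of oval cells from control was 1.49 (adjusted p = 6.95e-05), and that of foci was -1.05 (adjusted p = 0.0019), which passed the limits as a fall.

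Egfl7, a secreted protein that endothelial cells deposit around growing vessels, was likewise high in oval cells alone (chr3:29802481-29814966). Its deposited intensity was 242 and 275 in the controls. Oval cells had a lowest, median and highest intensity of 446, 483 and 505. Foci read 287, 256, 274, 282 and 273. All 6 oval cell arrays lay above all others and close together (478 ± 25.7, SD, n = 6), and foci and controls overlapped under 300. Egfl7 was at least 1.59-fold higher in oval cells than in control and than in foci, since every array of the dimmer groups lay under the limit. Its fitted log2 difference was 1.12 ± 0.10 from control (SE, adjusted p = 1.24e-07) and 1.00 ± 0.07 from foci (SE, adjusted p = 2.05e-08). Between foci and control it was 0.12 ± 0.10 (SE, adjusted p = 0.292). Both calls of Egfl7 sat at the 2-fold limit, and it read 0.997 against control without Control replicate 1 and 0.97 to 1.02 against foci with 1 array left out. Egfl7 entered the test only through its level in oval cells.

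Lyve1, the hyaluronan receptor of liver sinusoids and of lymphatic vessels, was bright in all 3 groups and overlapped between them (chr1:174393387-174410977). Its deposited intensity was 1417 and 1024 in the controls. In oval cells the lowest, median and highest were 1342, 1570 and 1762. Foci read 1314, 1695, 1716, 1410 and 1455. The first control array lay within the range of the other groups and the second below all of them. The log2 difference of oval cells from control was 0.39 ± 0.15 (SE, adjusted p = 0.0259), which is 1.31-fold and under the 2-fold limit, and it was -0.51 with centring on ribosomal protein genes. For foci against control it was 0.34 ± 0.15 (SE, adjusted p = 0.055), or -0.50 with that centring, and oval cells and foci differed by 0.05 ± 0.11 (SE, adjusted p = 0.711). With 1 array left out, the difference of oval cells from control ran from 0.14 to 0.64, with the extremes set by the 2 controls, and the adjusted p was 0.486 without Control replicate 2.

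**Figure D1:**
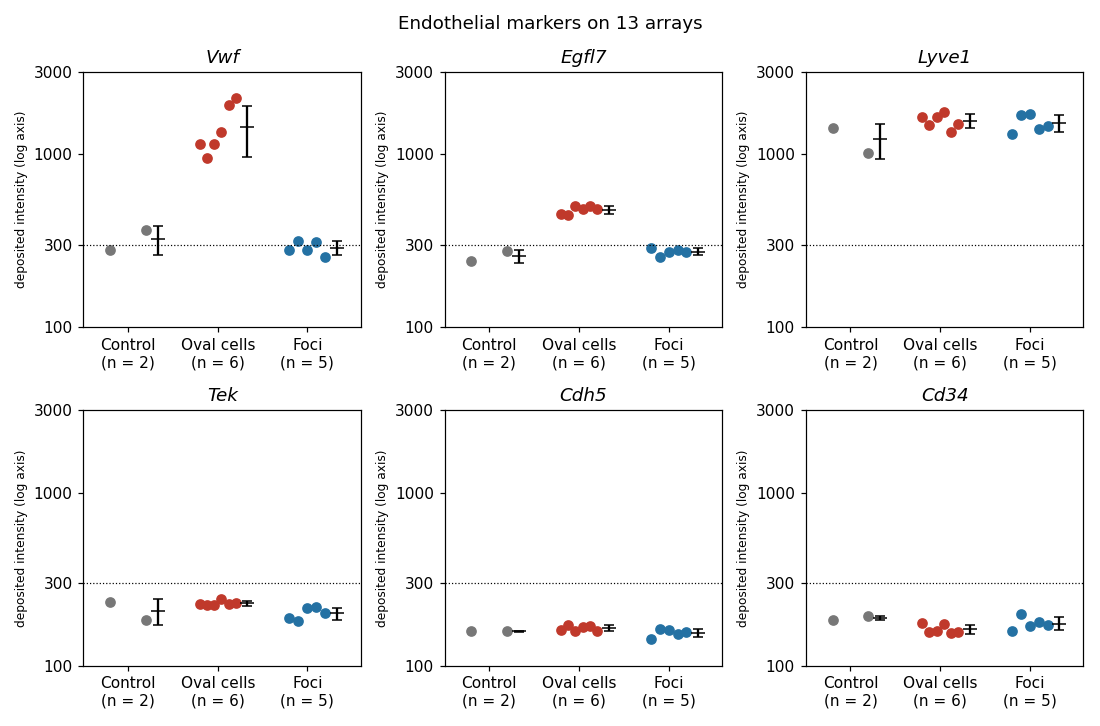
Deposited intensity (log axis) of the 6 endothelial markers with a named probe on each array, by group, with the mean and SD beside the points and the limit of 300 dotted. All 6 oval cell arrays lay above the rest for Vwf and Egfl7, the groups overlapped for Lyve1, and Tek, Cdh5 and Cd34 stayed under 300.

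Of the markers below the limit, Cdh5, the junctional cadherin of endothelium, read 157 to 159 in controls, 158 to 171 in oval cells and 143 to 164 in foci. Tek, the receptor for angiopoietins, read 182 to 234 in controls, 224 to 244 in oval cells and 181 to 217 in foci. Cd34, a sialomucin of vessel endothelium and blood progenitors, read 184 to 193, 154 to 177 and 158 to 199 in the same order, and was lower on every oval cell array than on either control. Oval cells and foci did not overlap for Tek. These differences were not tested, since signals under 300 were not taken as readable.

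Of the 10 markers 3 were tested, and 2 of them changed by at least 2-fold in oval cells against control, both higher. Over the 6997 probes tested 25.5% changed, 13.5% higher and 12% lower, but since Egfl7 was tested only because it was high in oval cells, the count is no support beside that share. In foci against control 0 changed, against 18.1% of all probes (10.3% higher and 7.8% lower), and at an unadjusted p under 0.05 the count was 1, for Lyve1. In oval cells against foci 2 changed, both higher, against 14.7% of all probes (7.96% higher and 6.73% lower), with the same limit through Egfl7. Groups that did not overlap were common on these arrays, at 73.3%, 68.5% and 51.5% of all probes tested in those comparisons. The median log2 difference of all probes tested was 0.01 in both comparisons with control. Centring on 52 probes of ribosomal protein genes took it to -0.88 in oval cells and -0.84 in foci, so every difference from control is relative to this choice, and the share of changed probes that were higher went from 52.9% to 9.4% in oval cells and from 56.9% to 5.4% in foci. Between oval cells and foci the median moved only from -0.03 to -0.08.

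To see whether other endothelial genes had the same order, 52 further genes of vessel-type and general endothelium were read, of which 42 had a named probe and 24 could be tested. They are called vessel genes below, though genes of endothelium in general are among them. In oval cells against control 11 of the 24 were higher and 0 lower (all probes, 13.5% and 12%), with a median log2 difference of 0.90, though with centring on ribosomal protein genes 2 were higher and 3 lower. By adjusted p alone 18 were higher, where 36.4% of all probes were, and 1 was lower, the lectin Clec14a (-0.56 ± 0.15, SE, adjusted p = 0.00352). Every oval cell array lay above both controls for 19 of the 24, where 73.3% of all probes did not overlap in either direction. Of these genes 5 entered the test only through oval cells, and among the 16 with a control median over 300, 5 were higher and 0 lower.

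The 4 vessel genes with the smallest adjusted p were Podxl, Ramp2, Rasip1 and Procr. Podxl, a sialomucin of the luminal surface, read 260 and 309 in controls, 744 to 954 in oval cells and 350 to 376 in foci, so the 3 groups did not overlap. It was 3.71-fold higher in oval cells than in control (log2 difference 1.89 ± 0.12, SE, adjusted p = 7.52e-09), a size that is uncertain since controls averaged 284. Ramp2, the partner of the adrenomedullin receptor, read 414 and 422 in controls, 1255 to 1829 in oval cells and 876 to 1036 in foci. It was 3.87-fold higher in oval cells (1.95 ± 0.13, SE, adjusted p = 8.28e-09). Rasip1, a Rap1 effector needed for vessel lumens, read 574 and 602 in controls, 1319 to 1729 in oval cells and 605 to 692 in foci, and was 2.81-fold higher in oval cells (adjusted p = 2.77e-08). Procr, the endothelial receptor for protein C, was at least 1.72-fold higher in oval cells (189 ± 12.7, SD, n = 2, in control against 516 ± 70.6, SD, n = 6), and it entered the test only through them, as did Gja5, Fli1 and Acvrl1 below. With ribosomal centring these log2 differences kept their sign and were 0.99, 1.05, 0.59 and 1.01.

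The other 7 genes of this vessel and general list that rose in oval cells, which were named after their values were seen, included both arterial connexins. Gja4 was 2.95-fold higher (527 in control against 1463, adjusted p = 1.37e-05) and Gja5 at least 1.99-fold higher (244 against 596, adjusted p = 2.49e-06). The surface mucin Emcn, of veins and capillaries, was 2.32-fold higher and the orphan receptor Tie1 2.25-fold higher. The nitric oxide synthase Nos3, the ETS factor Fli1 and the BMP receptor Acvrl1 were at least 1.62-fold, 1.56-fold and 1.65-fold higher. Without background correction Tie1, Nos3, Fli1 and Acvrl1 fell under the 2-fold limit, which left 7 of the 11. Several well-known vessel genes stayed below 300 in every group, among them Erg (174 to 190 in oval cells), Flt1 (176 to 195), Robo4 (137 to 166) and Sele (175 to 192), so these arrays say nothing of their change.

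In foci the vessel list stood elsewhere. Against control 1 of the 24 tested genes was higher, Ramp2 (2.61-fold, log2 difference 1.38 ± 0.13, SE, adjusted p = 5.62e-07), and 0 were lower, where 10.3% of all probes were higher and 7.8% lower, with a median log2 difference of 0.05, while with ribosomal centring 0 were higher and 7 lower. Nos3 read 249 and 257 in controls, 441 to 529 in oval cells and 381 to 509 in foci. Its fitted difference of foci from control was 1.00 ± 0.13 (SE, adjusted p = 1.01e-05), just under the limit, and it passed without Control replicate 2 (1.03) or without foci replicates 1, 3 or 4 in turn (1.00 to 1.06). The tight junction gene Cldn5 was -0.66 ± 0.27 in foci (SE, adjusted p = 0.0445) and 0.80 ± 0.26 in oval cells (SE, adjusted p = 0.0131), both under 2-fold. Without Control replicate 2 the number higher in foci was 3, with Nos3 and Procr (1.02) added, and it was 2 without each of those foci arrays.

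Set directly against foci, oval cells were higher for 7 of the 24 vessel genes and lower for 0 (all probes, 7.96% and 6.73%), with a median log2 difference of 0.68. These were Gja4 (3.35-fold), Podxl (2.72-fold), Rasip1 (2.54-fold), Cldn5 (at least 1.87-fold), Gja5 (at least 1.99-fold), Fli1 (at least 1.56-fold) and Acvrl1 (2.06-fold, a size that is uncertain since foci averaged 275). Every oval cell array lay above every focus array for 17 of the 24, where 51.5% of all probes did not overlap in either direction. Of the 24 genes 5 entered the test only through oval cells, Gja5, Fli1 and Acvrl1 among them. The counts and the median are therefore no support beside those shares. The number of higher genes ran from 6 to 9 with 1 array left out and was 6 with ribosomal centring. The slide cannot be told apart from the group here either, and the shared animals make the p-values too small.

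**Figure D2:**
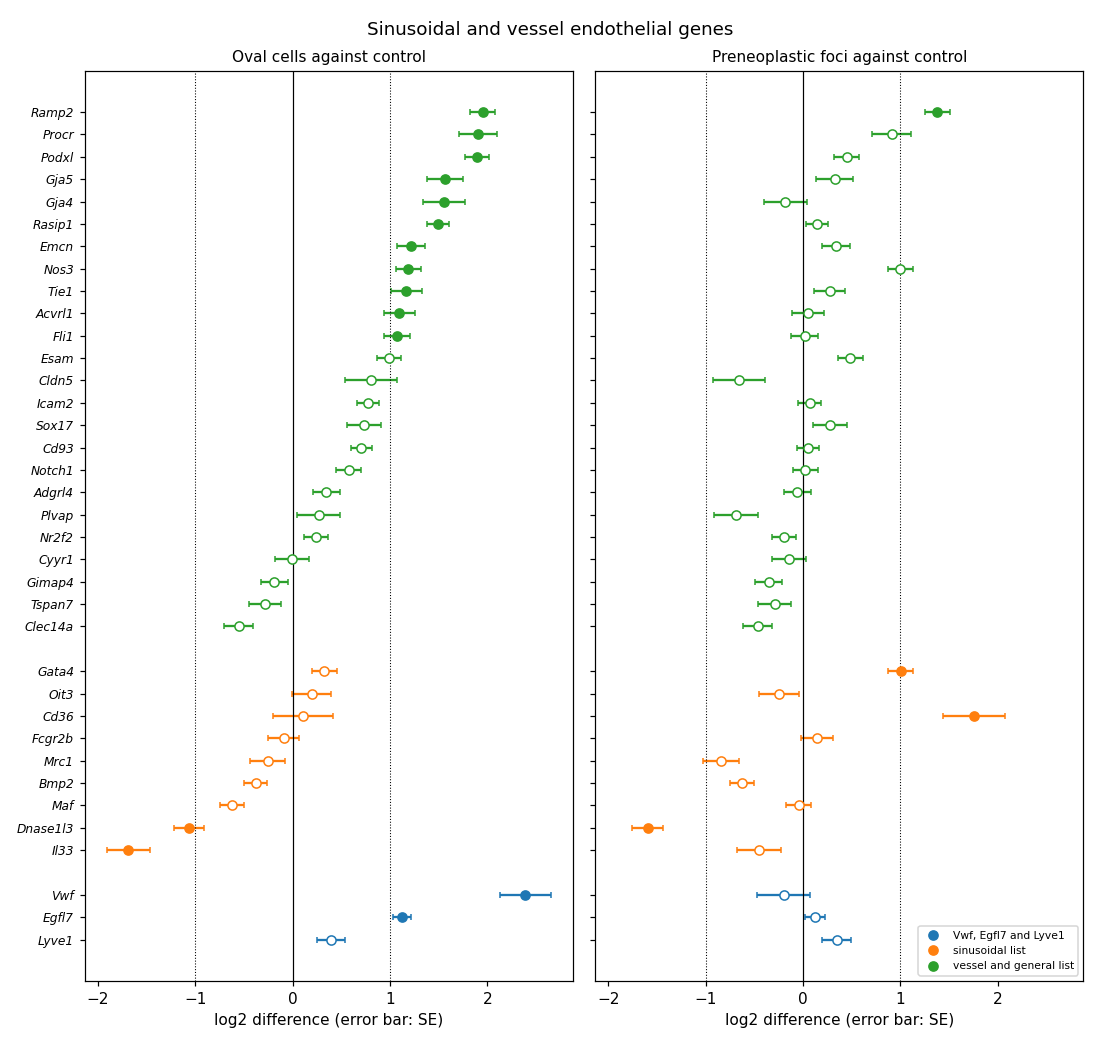
Log2 difference from control with its SE (x axis) of each tested gene in oval cells (left) and foci (right), for Vwf, Egfl7 and Lyve1, the sinusoidal list and the vessel and general list, with filled points for changed genes and dotted lines at 2-fold. In oval cells 11 of 24 vessel genes were higher (all probes, 13.5%), and 5 of the 24 entered the test only through oval cells. Of 9 sinusoidal genes 2 were lower there (all probes, 12%), close to that share. In foci 1 vessel gene and 2 sinusoidal genes were higher (all probes, 10.3%), and 1 sinusoidal gene was lower (all probes, 7.8%). With ribosomal centring all values shift down, to 2 vessel genes higher and 3 lower in oval cells.

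Beside Lyve1 and Stab2, 23 genes known from sinusoidal endothelium were read, of which 15 had a named probe and 9 could be tested. In oval cells against control 0 were higher and 2 lower (5 lower with ribosomal centring), with a median log2 difference of -0.26. Over all probes 13.5% were higher and 12% lower, so the count of lower genes lay close to that share. Dnase1l3, a secreted nuclease of sinusoidal cells and macrophages, read 3175 and 4061 in controls, 1414 to 2003 in oval cells and 1070 to 1444 in foci, so both groups lay below control. It was 2.09-fold lower in oval cells (log2 difference -1.06 ± 0.15, SE, adjusted p = 2.12e-05) and 3.02-fold lower in foci (-1.60 ± 0.16, SE, adjusted p = 8.49e-07). The call in oval cells ended without Control replicate 1 (-0.88) or Oval cells replicate 4 (-0.999).

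Il33, a nuclear cytokine found in sinusoidal and other cells, was 1255 and 1591 in controls, 395 to 626 in oval cells and 805 to 1285 in foci. It was 3.22-fold lower in oval cells than in control (-1.69 ± 0.22, SE, adjusted p = 7.97e-06) and 2.35-fold lower than in foci (adjusted p = 8.86e-06). The transcription factor Maf (-0.63 ± 0.12, SE, adjusted p = 0.000367) and the ligand Bmp2 (-0.38 ± 0.12, SE, adjusted p = 0.011) differed from control by less than 2-fold in oval cells. Gata4, a factor of sinusoidal identity that hepatocytes carry too, was 2.01-fold higher in foci, with a fitted difference of 1.00 ± 0.13 (SE, adjusted p = 9.49e-06), and the call ended without Control replicate 1 (0.88), with 3 of the foci arrays left out in turn (0.97 to 0.99) and with ribosomal centring (0.16). Cd36, a fatty acid and scavenger receptor also found on hepatocytes, rose 3.38-fold in foci (666 in control against 2162) and read 726 in oval cells (log2 difference 0.10 ± 0.31, SE, adjusted p = 0.775).

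In foci the sinusoidal list thus held 2 higher genes and 1 lower of 9, against 0 higher and 5 lower with ribosomal centring and 10.3% and 7.8% of all probes, and its median log2 difference was -0.25. Mrc1, the mannose receptor of sinusoids and macrophages, was -0.85 ± 0.18 there (SE, adjusted p = 0.00105), under the 2-fold limit. The size for Mrc1 hung on the 2 controls, at -0.48 without Control replicate 1 and -1.21 without Control replicate 2. Whether the differences of vessel-type and sinusoidal genes differ from each other was not tested, and the values stand side by side.

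Among 12 tested genes of signals that endothelium sends or receives, 3 were higher and 1 lower in oval cells and 0 higher and 4 lower in foci, or 0 higher and 5 lower and 0 higher and 8 lower with ribosomal centring. Over all probes 13.5% were higher and 12% lower in oval cells, and 10.3% higher and 7.8% lower in foci. The chemokine receptor Cxcr4 was at least 1.34-fold higher in oval cells (193 ± 20.8, SD, n = 2, in control against 402 ± 47.7, SD, n = 6, limma adjusted p = 7.55e-07), and it entered the test only through oval cells. Nrp1, a co-receptor for VEGF, read 742 and 797 in controls, 1264 to 1776 in oval cells and 440 to 520 in foci. Its difference in oval cells was 1.00 ± 0.14 (SE, adjusted p = 1.63e-05), which ended as a call in 4 of 13 leave-one-out fits (0.94 to 0.98), and oval cells were 3.46-fold above foci (adjusted p = 3.05e-09). The Notch ligand Jag1, which also entered only through oval cells, was at least 1.35-fold higher in them, and the growth factor of lymphatic vessels Vegfc differed by 0.80 ± 0.12 (SE, adjusted p = 2.37e-05).

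Cxcl12, the ligand of Cxcr4, was low in foci alone. It read 3697 and 3903 in controls, 3103 to 5564 in oval cells and 849 to 1328 in foci. In foci it was 3.66-fold lower than in control (-1.87 ± 0.22, SE, adjusted p = 4.74e-06) and oval cells overlapped the controls. The BMP receptor Bmpr2 was 2.18-fold lower in foci and the endothelin-converting enzyme Ece1 2.14-fold lower, while Efna1, a membrane-bound ephrin, was at least 1.16-fold lower in both groups. Bmpr2 fell short of the 2-fold limit without Control replicate 1 (-0.93). Vegfa, the main growth factor of vessels, which hepatocytes make, was -0.75 ± 0.14 in oval cells and -0.73 ± 0.15 in foci (SE, adjusted p = 0.000266 and 0.000534), both short of 2-fold.

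Of 5 tested genes of the basement membrane around vessels, 4 were higher in oval cells, or 3 higher and 1 lower with ribosomal centring, where 13.5% of all probes were higher, and 2 of the 5 (Lamb2 and Lamc1) entered the test only through oval cells. Col4a1, a chain of type IV collagen, read 373 and 450 in controls, 2345 to 3737 in oval cells and 554 to 918 in foci, and was 8.48-fold higher in oval cells (log2 difference 3.08 ± 0.23, SE, adjusted p = 2.28e-08). The matrix protein Sparc was 4.03-fold higher, and the laminin chains Lamb2 and Lamc1 at least 2.46-fold and 1.52-fold. Col18a1, the source of endostatin, was -0.38 ± 0.13 (SE, adjusted p = 0.0195). In foci 0 of the 5 passed, with Col4a1 at 0.94 ± 0.23 and Sparc at 0.88 ± 0.22 (SE, adjusted p = 0.00244 and 0.00239), both passed without Control replicate 2 (1.11 and 1.14), and Col4a1 also without foci replicates 1 (1.01) or 4 (1.05). Fibroblasts and biliary cells make these proteins too.

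Genes of lymphatic endothelium were few. The chemokine Ccl21, made by lymphatic vessels and portal stroma, read 183 and 185 in controls, 394 to 797 in oval cells and 210 to 265 in foci. It was at least 1.92-fold higher in oval cells than in control (adjusted p = 2.12e-06), having entered the test only through oval cells, as did Pdpn. Reln, a secreted protein of lymphatic and stellate cells, was 2.77-fold lower in foci (2069 in control against 798, log2 difference -1.47 ± 0.13, SE, adjusted p = 3.63e-07), and Pdpn read 198 to 320 in oval cells, 184 to 194 in controls and 142 to 200 in foci. Prox1, a master factor of lymphatic fate that hepatocytes carry too, stayed under 300 on all arrays.

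**Figure D3:**
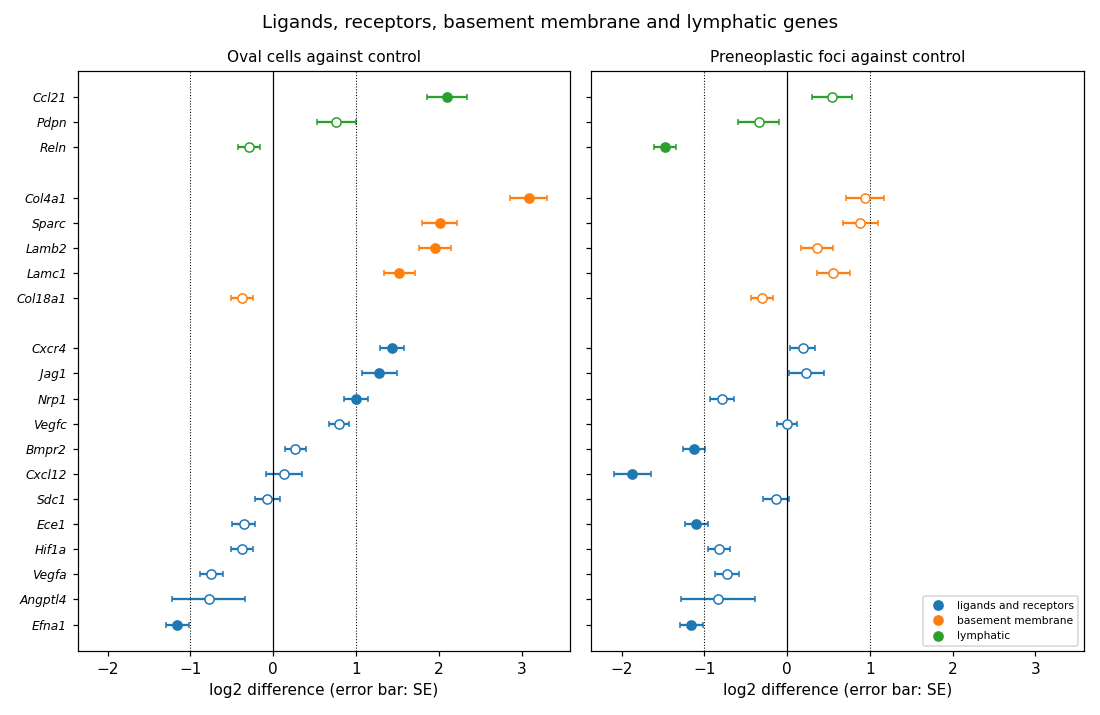
Log2 difference from control with its SE (x axis) of each tested gene of endothelial signals, vascular basement membrane and lymphatic endothelium, in oval cells (left) and foci (right), with filled points for changed genes and dotted lines at 2-fold. Col4a1 lay at 3.08 in oval cells and Cxcl12 at -1.87 in foci. With ribosomal centring all values shift down.

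Of the other cells that dissected tissue can hold, stellate and biliary markers were also higher in oval cells. Erythroid, hepatocyte and macrophage markers, given below, fell, differed little as a list or were mixed. Of 16 stellate, fibroblast and mural cell genes 15 were higher in oval cells, where 13.5% of all probes were, with a median log2 difference of 2.14. Of the 16, 3 entered the test only through oval cells. In foci 5 were higher and 1 lower, where 10.3% and 7.8% of all probes were. The summed intensity of the 21 with a probe was 25333 to 25748 in controls, 73111 to 100124 in oval cells and 19976 to 34742 in foci. Of 10 biliary genes 9 were higher in oval cells, Krt19 by 30.2-fold, and 2 of the 10 entered the test only through them. In foci 5 of the 10 were higher and 1 lower. The biliary sums were 6712 to 6935 in controls, 31846 to 47269 in oval cells and 7227 to 11056 in foci. The summed intensity of the vessel list, with 42 probes, was 13072 to 13524 in controls, 18945 to 22697 in oval cells and 13387 to 14474 in foci, and that of the sinusoidal list, with 15, was 9446 to 12155, 7098 to 8162 and 8025 to 10051. The sums include probes too dim to be tested, 18 of the vessel list, 6 of the sinusoidal, 5 of the stellate and 0 of the biliary list. Changes in the sums therefore cannot be compared between lists. The part of these other cells in the endothelial differences was not tested.

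Platelets also store Vwf. All 7 platelet and megakaryocyte genes with a named probe stayed under the limit and could not be tested, with Pf4 at 210 to 276 in oval cells and 210 to 285 in controls, and the part of platelets in the Vwf signal was not tested. Red cell genes fell, with all 3 tested lower in both groups, Hba-a1 by 7.15-fold in oval cells and 3.80-fold in foci. The summed intensity of 13 hepatocyte probes was 314269 to 324718 in controls, 291552 to 324555 in oval cells and 283098 to 315191 in foci. Such signals lie at the top of the scale, where Alb read the same 40082.2 on oval cell arrays 2, 3 and 6, so a like sum does not show a like level. Single hepatocyte genes differed, with Ttr at -0.75 in oval cells and -0.89 in foci and Pck1 at 1.19 in oval cells on the log2 scale. Of 8 blood progenitor genes with a named probe 2 could be tested, and 1 of them, Ly6e, was higher in both groups. On the mesothelial list 2 genes could be tested, Msln and Krt8, and both were higher in both groups. Krt8 is a keratin of hepatocytes too, per the paper, which leaves Msln alone for mesothelium. So few genes say little of either cell type. Of 11 macrophage genes 2 were higher and 1 lower in oval cells and 0 higher and 3 lower in foci. Beside each of these list counts stand the shares over all probes, 13.5% higher and 12% lower in oval cells and 10.3% and 7.8% in foci. The macrophage counts in oval cells lay near those shares. The summed intensity of the 12 macrophage probes was 18536 to 22170 in controls, 27329 to 37544 in oval cells and 15697 to 20251 in foci. The mean log2 value of the 11 tested macrophage genes overlapped between controls and oval cells. Foci replicate 2 was the highest of the foci for Krt19 (1248) and for Vwf (317), a value that still lay within the range of the 2 controls. With ribosomal centring every such difference from control lies lower by the shift given above.

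**Figure D4:**
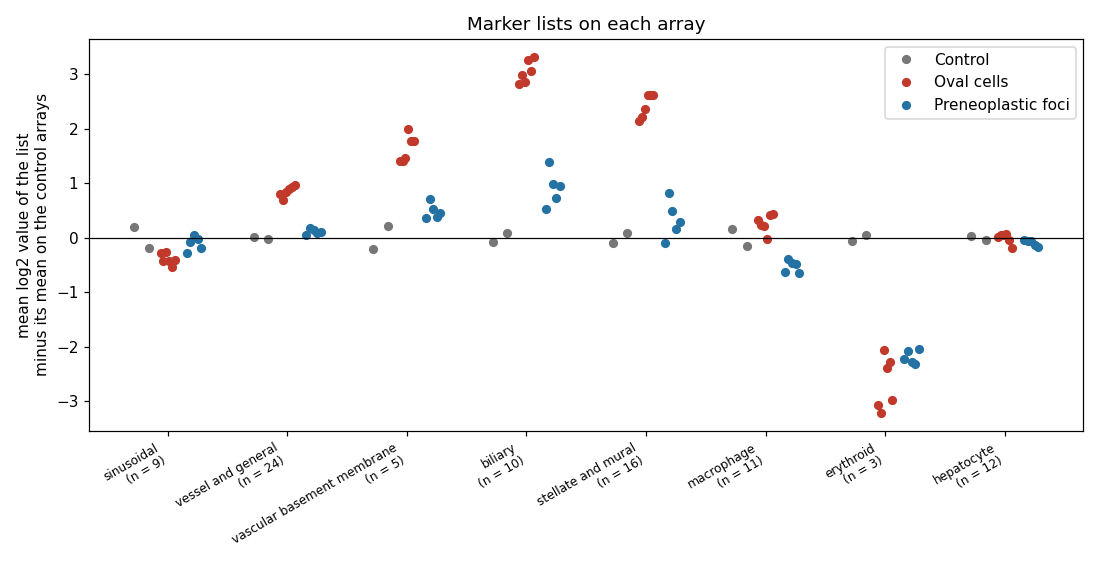
Mean log2 value of each list's tested genes on each array minus the mean of the 2 control arrays (y axis), by list and group, with the number of genes per list. Vessel, basement membrane, biliary and stellate lists lay above control on all 6 oval cell arrays. All of these but the stellate list also lay above both controls on every focus array, by less. In that order 5 of 24, 2 of 5, 2 of 10 and 3 of 16 of their genes entered the test only through oval cells. The erythroid list lay below control on all oval cell and focus arrays. The hepatocyte list, whose signals lie at the top of the scale, read between -0.18 and 0.07. Ribosomal centring moves all lists down.

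The genes whose pattern over the 13 arrays was most like that of Vwf among 5464 other named probes tested were Olfml2b, Fstl1 and Gpx8, with root mean square differences of 0.29, 0.30 and 0.30 on the log2 scale after each profile was centred on its own mean. They encode an extracellular matrix protein, a secreted glycoprotein and a peroxidase of the endoplasmic reticulum. Mean intensities of Fstl1 were 1670 in control, 10266 in oval cells and 1754 in foci. Closest to Egfl7 were Taf1c, a factor of ribosomal RNA synthesis, the small GTPase Cdc42 and Vars1, a transfer RNA synthetase, at 0.12, 0.13 and 0.15. This likeness is a description over 13 arrays in 3 groups.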

How the data were processed

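RNA from laser-microdissected rat liver was read on 13 Illumina arrays. The authors exported the deposited linear intensities from BeadStudio 3.0.19.0 after quantile normalization, per the labels, and these values were used as given. A further table with 26 columns of per-sample values was not used, since its columns could not be matched to samples. Of 22523 probes, 13793 had 1 gene symbol in the platform annotation, 0 had several and 8730 were unnamed here, and 13752 of the named probes matched RefSeq.

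Intensities were background-corrected with normexp at an offset of 50, taken to log2, quantile normalized and fitted over all arrays in limma 3.58.1 (R 4.3.3). The 6997 probes with a median over 300 in at least 1 group were tested, with Benjamini-Hochberg adjustment over all of them. Genes with an adjusted p under 0.05 that differed by 2-fold or more were called changed, higher or lower. Some genes passed this filter only through the group where they were high. With every array of the dimmer group under 300, the brighter mean divided by 300 is printed as a lower bound of the fold. The fit was tested on simulated data.

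The labels gave 2 arrays of Control, 6 of Oval cells and 5 of Preneoplastic foci. Nothing ties replicates to separate animals, so p-values measure the spread between these samples, which may be technical. The number of arrays limits precision. Named genes were all members and, from each list, up to 4 genes with the smallest adjusted p in oval cells and 2 in foci, and others were named after their values were seen. The members and the lists were chosen with earlier results of these data known. Alternatives changed the background correction, filter, fold limit, arrays in the fit, array weights, test, normalization and centring, or left out 1 array.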

Additional observations from a re-analysis of the deposited data

Results flagged for a closer look

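Of 136 sets of replicates checked (68 genes in oval cells and in foci), 6 held an array far from the rest, which is 4.41%, and chance flags about 1 in 20 such groups. Tek in Oval cells replicate 4 read 244 against 224 to 229 on the other arrays of that group, all under the limit of 300. The same array was highest for Ramp2 (1830, others 1260 to 1430) and for Cxcr4 (495, others 360 to 397). Maf in Oval cells replicate 6 read 559 against 425 to 458. In Preneoplastic foci replicate 2, Esam read 592 against 438 to 469, and the hepatocyte gene Ttr read 15700 against 21300 to 23800.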

How the results depend on the processing

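Of the 10 markers 3 could be tested, and of these 2 changed in oval cells against control and 2 against foci, and 0 in foci against control. Over all probes tested 25.5%, 14.7% and 18.1% changed, in that order. Egfl7 was tested only because it was high in oval cells, so the counts with oval cells are no support beside those shares. Against control the count was 1 without background correction, with the median over 300 taken over all arrays, with the methods' filter and with centring on ribosomal protein genes. Against foci it was 1 under the same settings and with array weights. In foci against control it was 1 with ribosomal centring, for Vwf (-1.05). In each case of a lower count the call of Egfl7 was the one lost, and both stricter filters left Egfl7 out of the test. With 1 array left out the counts ran from 1 to 2, from 0 to 0 and from 1 to 2. The first fell without Control replicate 1, and the last without Oval cells replicates 3, 4, 5 or 6 or foci replicates 2 or 5. Lyve1 lost its adjusted p under 0.05 in oval cells with a Student's t-test in place of limma (0.0705), and in limma with cyclic loess (0.0707) and no filter (0.0522). Probes changed over the whole array numbered 1781, 1268 and 1028, against 3414, 3036 and 1031 with ribosomal centring, 941, 633 and 825 with the methods' filter, and 4958, 4532 and 4902 with no fold limit. The Student's t-test called 5017, 4363 and 4975 probes at the unadjusted threshold and 1769, 1249 and 1025 after Benjamini-Hochberg with the fold limit. The study tested its arrays with a random-variance model and permutations, which were not run here. No paired analysis was possible because replicate numbers were given in accession order. A filter on detection p-values and a second probe per marker were not run. Signal near background limits Cdh5, Tek and Cd34.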
